A study of Mus musculus with 6 samples.

Results

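The genes described here are the 7 MHC class II presentation genes H2-Aa, H2-Ab1, H2-Eb1, H2-DMa, H2-DMb1, Cd74 and Ciita. They were taken by symbol from a table of 21899 mouse genes, and all 7 are listed in it. The set was chosen on measured values, since it was put together after the comparisons of these same samples were known, so the differences between groups are given for these genes as a description and not as a test.

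The tumors grew from LLC-luc cells, a luciferase-carrying line of Lewis lung carcinoma, injected under the skin of the axillary region of male C57BL/6 mice. All 3 groups received laser light, at 620 nm for 10 min per the labels. The Laser group had no photosensitizer and, per the study's methods, was injected with saline. The PC-La group was injected with phycocyanin (PC), a light-absorbing protein of Spirulina, and the SePC-La group with selenium-enriched phycocyanin (SePC), in each case 4 h before the light and once every 5 days. The study's methods give a different wavelength and injection interval. Each group holds 2 samples of whole tumor tissue. The sources used here do not state that the samples of a group came from separate tumors or animals, so p-values measure the spread between these samples, which may be technical. No tumor without laser light was among the samples, and every value below is relative to irradiated tumors.

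MHC class II molecules carry peptides from ingested proteins to the cell surface, where CD4+ T cells read them. Each molecule pairs an α and a β chain. The invariant chain, encoded by Cd74, escorts the pair to the endosome and blocks its groove, and H2-DM then exchanges the remaining invariant chain fragment for peptide. Ciita, the class II transactivator, binds no DNA itself but joins the factors on the promoters of these genes, and interferon-γ is its best-known inducer. Dendritic cells, macrophages and B cells express class II most strongly. C57BL/6 mice lack a working H2-Ea gene, so the chain encoded by H2-Eb1 has no partner in this strain.

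In these samples the 7 genes shared a pattern. Both PC-La samples were above all 4 other samples for each of the 7, by a factor of 2.0 (H2-DMa) to 2.89 (H2-Eb1) between the lower PC-La sample and the highest of the others. For each of the 7 both SePC-La samples lay between the Laser samples, which differed from each other by a factor of 1.84 (H2-DMa) to 4.47 (H2-Ab1). The summed level of the 7 genes was 433.6 and 117.5 FPKM in the Laser samples, 1130 and 1415 FPKM in the PC-La samples, and 384.4 and 317.5 FPKM in the SePC-La samples. FPKM is the number of fragments on a gene, divided by its exon length and by the total of fragments assigned to genes in that sample. In whole tumor tissue, more cells that express these genes and more RNA per cell cannot be told apart.

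The sequences shown first are promoter stretches, because the class II genes are known for a shared arrangement of letters upstream of their start sites, the X box read by the RFX complex and the Y box read by NF-Y. RefSeq windows of 300 bases, from 250 bases before to 50 after the start site, were at hand for 4 of the 7 genes (H2-Aa, H2-Eb1, H2-DMb1 and 2 windows for H2-DMa). A module of the letters GNAAC, then 20 to 30 bases of any kind, then TGATTGG was searched on both strands, with its letters chosen after these windows had been seen. It was found in H2-Aa, H2-Eb1 and H2-DMb1 and in neither window of H2-DMa. The start sites of those 2 windows follow the bases 34122831 and 34125517. They lie inside the H2-DMa gene model (34119541 to 34139101), which overlaps that of Brd2. Other start sites of H2-DMa were not searched, so the gene cannot be said to lack the module. Of 32851 mouse windows, 106 held it (0.323%), whereas TGATTGG alone was in 7.82% and GNAAC alone in 84.8%. The 130 bases before the start sites are given 5′ to 3′ on the strand of the gene, build GRCm38.p6, with the module in capitals.
H2-Aa, chr17:34287824-34287953, minus strand: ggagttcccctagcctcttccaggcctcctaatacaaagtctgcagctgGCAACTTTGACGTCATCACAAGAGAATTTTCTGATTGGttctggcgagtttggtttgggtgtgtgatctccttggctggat
H2-Eb1, chr17:34305737-34305866, plus strand: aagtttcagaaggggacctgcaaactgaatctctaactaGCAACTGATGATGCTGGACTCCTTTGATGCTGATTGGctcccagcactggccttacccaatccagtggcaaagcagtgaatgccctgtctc
H2-DMb1, chr17:34153061-34153190, plus strand: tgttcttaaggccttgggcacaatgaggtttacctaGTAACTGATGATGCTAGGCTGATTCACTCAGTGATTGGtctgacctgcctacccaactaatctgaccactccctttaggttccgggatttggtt

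Counted from the start site, the module spanned the bases -81 to -44 in H2-Aa, -91 to -55 in H2-Eb1 and -94 to -57 in H2-DMb1, with 26, 25 and 26 bases between its outer letters. The module was also found in the windows of 3 class II genes that these samples hardly expressed, namely H2-Eb2, H2-Oa and H2-Ob, described with the other genes of the pathway. It was not found in the window of H2-DMb2, which held TGATTGG without the rest of the module. The module is a match of letters and not a measured site.

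H2-Aa encodes the α chain of the class II molecule I-A. It lies on chromosome 17 at 34282744 to 34287823 in the GENCODE M21 annotation of GRCm38. Its level was 50.79 and 15.23 FPKM in Laser replicates 1 and 2, 141.3 and 175.0 FPKM in the PC-La samples, and 41.77 and 37.27 FPKM in the SePC-La samples. Both PC-La samples stood above the rest, and both SePC-La samples fell between the Laser samples. The difference in log2(FPKM + 1), a scale that understates the change of low genes, was 2.45 (SE 0.53) between PC-La and Laser and -1.97 (SE 0.53) between SePC-La and PC-La.

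H2-Ab1 encodes the β chain that pairs with the H2-Aa product, and lies on chromosome 17 at 34257689 to 34269419. It was at 78.39 and 17.52 FPKM in Laser, 209.3 and 241.0 FPKM in PC-La, and 65.87 and 57.70 FPKM in SePC-La. The order of the groups was the same, and the SePC-La samples again lay between the Laser samples. The difference in log2(FPKM + 1) was 2.56 (SE 0.66) for PC-La against Laser and -1.85 (SE 0.66) for SePC-La against PC-La.

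H2-Eb1 encodes the β chain of the I-E molecule, and lies on chromosome 17 at 34305867 to 34316674. It was at 86.36 and 19.99 FPKM in Laser, 249.4 and 330.3 FPKM in PC-La, and 75.80 and 57.93 FPKM in SePC-La. The difference in log2(FPKM + 1) was 2.75 (SE 0.66) between PC-La and Laser, the highest of the 7, and -2.10 (SE 0.66) between SePC-La and PC-La. Its mean was 5.45-fold higher in PC-La than in Laser and 4.34-fold higher than in SePC-La. An annotated antisense gene, Gm20513, overlaps H2-Eb1, and the strand setting of the counting is not given in the sources used here, so reads of the 2 genes may not be separated.

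**Figure D1:**
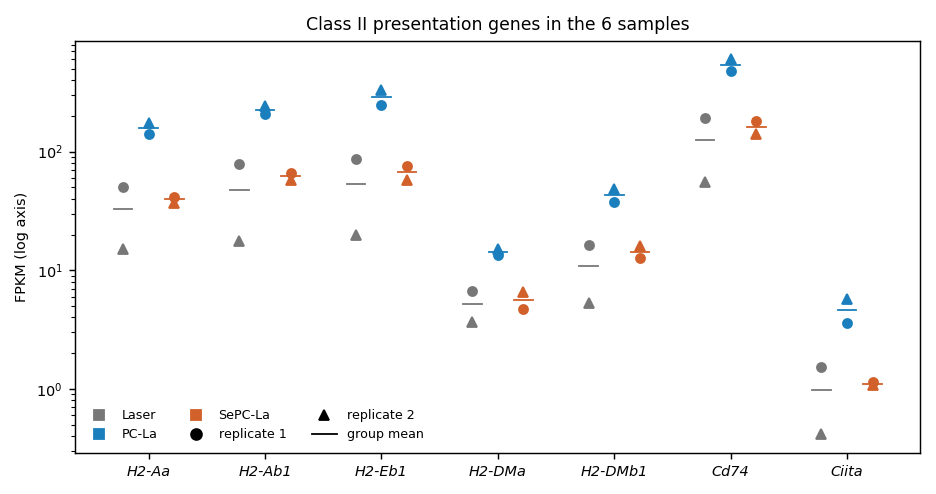
Level of the 7 class II genes in each sample, in FPKM on a log axis, with circles for replicate 1, triangles for replicate 2 and a line at each group mean. For each gene both PC-La points lie above all other points, and Laser replicate 2 is the lowest point.

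The peptide loading genes lie on chromosome 17 between the start of H2-DMa (34119541 to 34139101) and the end of H2-DMb1 (34153072 to 34160230). H2-DMa, the α chain of the H2-DM exchange factor, was at 6.716 and 3.648 FPKM in Laser, 13.45 and 14.98 FPKM in PC-La, and 4.717 and 6.545 FPKM in SePC-La. It had the smallest ratios between groups of the 7 genes, with a mean 2.74-fold higher in PC-La than in Laser. The model of H2-DMa overlaps that of Brd2 on the other strand, and the share of its reads that came from that gene was not tested. H2-DMb1, the β chain, was at 16.31 and 5.325 FPKM in Laser, 37.34 and 48.50 FPKM in PC-La, and 12.64 and 15.98 FPKM in SePC-La. It has a near copy, H2-DMb2, with which reads could be shared in counting. The ratio of H2-DMb1 to H2-DMa was 1.46 in Laser replicate 2 and between 2.43 and 3.24 in the other 5 samples. The differences in log2(FPKM + 1) between PC-La and Laser were 1.34 (SE 0.27) for H2-DMa and 2.06 (SE 0.47) for H2-DMb1, and those between SePC-La and PC-La were -1.21 (SE 0.27) and -1.52 (SE 0.47).

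Cd74 was the most abundant of the 7 in every sample and ranked 123 by mean level among the genes of the table. Besides escorting class II chains, its product is a surface receptor for the cytokine MIF. Its level was 193.6 and 55.34 FPKM in Laser, 475.4 and 599.1 FPKM in PC-La, and 182.5 and 141.0 FPKM in SePC-La. The mean was 4.32-fold higher in PC-La than in Laser and 3.32-fold higher in PC-La than in SePC-La. The difference in log2(FPKM + 1) was 2.35 (SE 0.58) for PC-La against Laser and -1.73 (SE 0.58) for SePC-La against PC-La. The Cd74 model contains the microRNA gene Mir5107, which lies on the same strand.

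Ciita, on chromosome 16 at 10480059 to 10528418, was the least abundant of the 7. Its level was 1.528 and 0.416 FPKM in Laser, 3.604 and 5.712 FPKM in PC-La, and 1.140 and 1.075 FPKM in SePC-La. Those values rest on 229 and 70 reads in the Laser samples, 537 and 815 reads in the PC-La samples, and 157 and 179 reads in the SePC-La samples. The means were 4.79-fold higher in PC-La than in Laser and 4.21-fold higher in PC-La than in SePC-La, near the folds of the structural genes. The difference in log2(FPKM + 1) was 1.56 (SE 0.32) for PC-La against Laser and -1.40 (SE 0.32) for SePC-La against PC-La. The model of Ciita overlaps that of Dexi on the other strand.

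The order of the 7 genes by FPKM was the same in all 6 samples, from Cd74 through H2-Eb1, H2-Ab1, H2-Aa, H2-DMb1 and H2-DMa to Ciita, although H2-Eb1 and H2-Ab1 were nearly equal in SePC-La replicate 2. The makeup of the class II transcripts moved little while their sum ran from 117.5 to 1415 FPKM. Cd74 made up between 42.1% and 47.5% of the summed FPKM, H2-Aa between 10.9% and 13.0%, H2-Ab1 between 14.9% and 18.5% and H2-Eb1 between 17.0% and 23.3%. H2-DMa took 3.11% in Laser replicate 2 and between 1.06% and 2.06% elsewhere. Ciita stood at 6.24 to 9.53 per 1000 of Cd74. These ratios share their libraries and are given as a description.

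**Figure D2:**
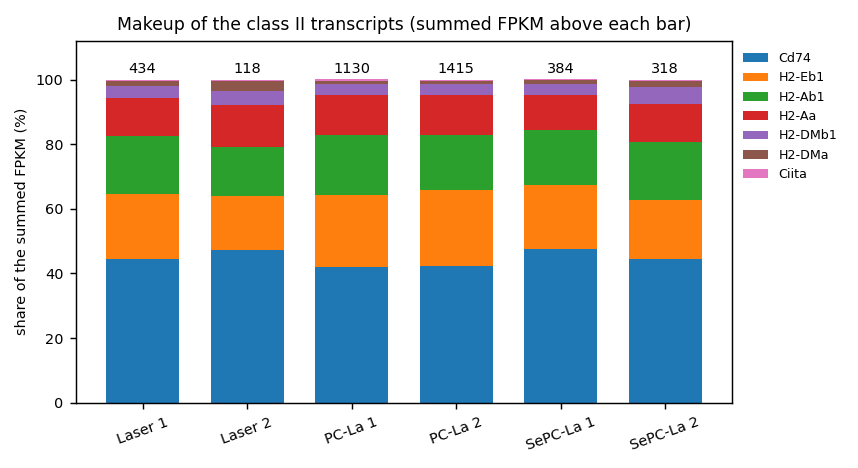
Share of each class II gene in the summed FPKM of the 7, in percent, for each sample, with the sum in FPKM above each bar. Cd74 holds between 42.1% and 47.5% of each bar, while the sums run from 117.5 to 1415 FPKM.

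The comparisons between groups used limma on the 10853 genes whose mean over the 6 samples reached 1 FPKM. All 7 class II genes passed that filter. A gene was called where it met the study's criterion, an absolute log2 difference over 1 and an unadjusted p under 0.05. Between PC-La and Laser all 7 were called higher, beside 0.866% of all genes tested, and their median log2 difference was 2.35, beside -0.000619 over all genes. Both PC-La samples were above both Laser samples for all 7 and for 20.4% of all genes. Nothing is read from these counts, since the comparison was known when the genes were chosen. None of the 10853 genes tested had a Benjamini-Hochberg adjusted p under 0.05 from limma in any of the 3 comparisons, and limma voom on recovered reads of 10842 of them gave 0 as well. At an unadjusted p under 0.05, limma gave 627 genes for PC-La against Laser, 1318 for SePC-La against Laser and 2637 for SePC-La against PC-La, and limma voom gave 633, 1428 and 2561.

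The size of the difference between PC-La and Laser depended on which Laser sample it was measured from. Against Laser replicate 1, the PC-La mean was between 2.12-fold (H2-DMa) and 3.36-fold (H2-Eb1) higher. Against Laser replicate 2, it was between 3.90-fold (H2-DMa) and 14.5-fold (H2-Eb1) higher. Without Laser replicate 1 the median log2 difference was 3.25 and all 7 were called. Without Laser replicate 2 it was 1.46 and 6 were called, with H2-DMa left at 0.98. Without PC-La replicate 2 the genes H2-Ab1, H2-Eb1 and Cd74 were no longer called, at 2.46, 2.55 and 2.19, and without PC-La replicate 1 H2-Ab1 was not called, at 2.66. A group reduced to 1 sample was assumed to vary like the others.

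Between SePC-La and Laser none of the 7 was called, and the groups overlapped for all 7. The background was 0.544% of genes called higher. The log2 differences ran from 0.13 (H2-DMa) to 0.71 (H2-Ab1), with a median of 0.54 beside -0.0648 over all genes, and their standard errors from 0.27 to 0.66. The direction rested on the Laser sample used, and for H2-DMa on the SePC-La sample as well. The SePC-La means were 0.725 to 0.877 of Laser replicate 1 and 1.54 to 3.53 times Laser replicate 2. Without Laser replicate 2 all 7 differences were negative, with a median of -0.27. Without Laser replicate 1 the median was 1.32 and 5 genes were called higher, namely H2-Aa, H2-Ab1, H2-Eb1, H2-DMb1 and Cd74. Neither a difference nor its absence could be shown with these samples.

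Between SePC-La and PC-La, the comparison of both photosensitizers under the same light, all 7 genes were called lower in SePC-La, beside 1.80% of all genes tested. Of the 323 genes called in this comparison, 128 were higher in SePC-La, and with median-ratio scaling 158 of 312 and with quantile normalization 169 of 318 were higher. The 7 class II genes were called lower under both scalings. Their median log2 difference was -1.73, beside -0.0741 over all genes. Both SePC-La samples were below both PC-La samples for all 7 and for 39.5% of all genes. These counts too are a description, and the comparison shares its PC-La samples with the one against Laser. Leaving out 1 sample of these groups kept all 7 differences negative. Without PC-La replicate 2 the criterion was met by H2-DMa and Ciita alone, and likewise without SePC-La replicate 2. Without PC-La replicate 1 or SePC-La replicate 1 it was met by H2-Aa, H2-DMa and Ciita.

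**Figure D3:**
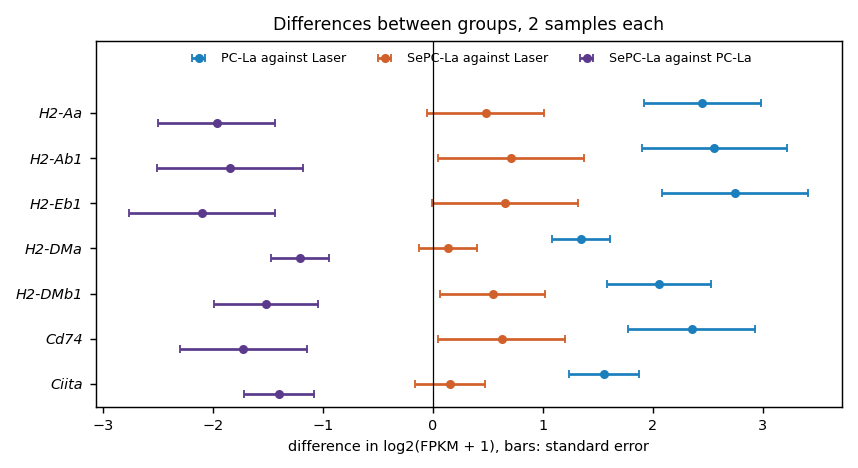
Difference in log2(FPKM + 1) for each class II gene in the 3 comparisons, with bars of 1 standard error from the limma fit of all 6 samples. The PC-La against Laser points run from 1.34 to 2.75, the SePC-La against Laser points from 0.13 to 0.71 and the SePC-La against PC-La points from -2.10 to -1.21.

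Laser replicate 2 stood apart from the other samples in ways that touch every comparison with Laser. The 5 listed skeletal muscle markers summed to 124 FPKM in it, to 19.0 FPKM in Laser replicate 1 and to between 1.48 and 5.90 FPKM in the other samples. That list was chosen with earlier results of these data known. Acta1, Ckm, Myh4, Mylpf and Tnnt3, genes of the contractile fibre and its energy supply, were all called lower in PC-La than in Laser, beside 0.424% of all genes, and lower in SePC-La than in Laser, beside 0.138%. Acta1, Ckm, Myh4 and Tnnt3 passed the filter through the Laser samples. Their means were 0.405, 0.0439, 0.0691 and 0.746 FPKM in PC-La and 0.876, 0.108, 0.162 and 0.691 FPKM in SePC-La. Nothing is read from the number of these calls. These calls depended on the setting. That of Mylpf in PC-La against Laser held under all 14 alternatives in which the gene was fitted, and that of Ckm under 6 of 14 there and 5 of 14 in SePC-La against Laser, with the others between. With limma voom only Mylpf was called in each comparison, although the log2 differences grew, to -7.61 for Myh4 in the first. The differences of the 5 genes against Laser were between -2.73 and -0.64 without Laser replicate 2 and between -5.08 and -2.66 without Laser replicate 1. Ptprc, which encodes the leukocyte antigen CD45, was lowest in Laser replicate 2, at 3.92 FPKM against 7.66 FPKM in Laser replicate 1. The part of these differences in the class II values was not tested. The correlation of log2 levels across genes, which are no independent replicates, was 0.946 for the pair of Laser samples, 0.972 for SePC-La and 0.992 for PC-La.

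Of 15 other genes of the class II pathway, 13 are in the table and 10 passed the filter, and none was called in any comparison. With limma, 1 of them had an unadjusted p under 0.05 for PC-La against Laser, 1 for SePC-La against Laser and 4 for SePC-La against PC-La. Over all 10853 genes tested, 627, 1318 and 2637 had such a p, and 140, 74 and 323 were called. These numbers stand beside the counts of the lists below as well. Nothing is read from the absence of calls in a list of this size. H2-Ea and H2-Ea-ps were not analysed here. The median log2 difference of the 10 was 0.14 for PC-La against Laser, -0.06 for SePC-La against Laser and -0.32 for SePC-La against PC-La. H2-DMb2, the second β chain gene of H2-DM, came nearest, with 1.06 and 0.227 FPKM in Laser, 1.21 and 2.79 FPKM in PC-La, and 0.911 and 0.721 FPKM in SePC-La. It passed the filter through the PC-La samples and had 7 reads in Laser replicate 2 and 73 in PC-La replicate 2. Its log2 difference was 0.87 (SE 0.35) for PC-La against Laser and -0.67 (SE 0.35) for SePC-La against PC-La. With limma voom, without Laser replicate 1 or without PC-La replicate 1, it was called in the first of these, and without PC-La replicate 1 in the second too.

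H2-Oa and H2-Ob encode H2-O, which restrains H2-DM and is found mainly in B cells, and H2-Eb2 is a β chain gene beside H2-Eb1. All 3 were below 0.70 FPKM in every sample, although their promoter windows hold the module shown above. Ctss, the protease that trims the invariant chain in antigen-presenting cells, was abundant throughout, at 241.8 and 386.2 FPKM in Laser, 391.6 and 436.9 FPKM in PC-La, and 229.6 and 282.5 FPKM in SePC-La. Laser replicate 2, the lowest sample for the class II genes, was close to the PC-La samples for Ctss. The log2 difference of Ctss was 0.44 (SE 0.24) for PC-La against Laser and -0.70 (SE 0.24) for SePC-La against PC-La. The proteases Ctsb and Ctsd and the endopeptidase Lgmn had log2 differences between -0.06 and 0.11 in all 3 comparisons. March1, the ubiquitin ligase that removes class II from the surface, was at -0.78 (SE 0.21) for SePC-La against PC-La and was called there with a pseudocount of 0.1, with limma voom and without SePC-La replicate 2.

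The factors that hold Ciita on the promoters, and acetyltransferases that work with it, were measured for 10 of 10 listed genes, and none was called. Their median log2 difference was -0.02 for PC-La against Laser, -0.24 for SePC-La against Laser and -0.23 for SePC-La against PC-La. Rfx5, a DNA-binding subunit of the RFX complex, was at 0.16 (SE 0.17) for PC-La against Laser and -0.43 (SE 0.17) for SePC-La against PC-La. Kat2b, an acetyltransferase that works with Ciita, differed most in the list, at -0.91 (SE 0.17) for SePC-La against PC-La. Its level was 14.65 and 11.12 FPKM in Laser, 18.02 and 16.63 FPKM in PC-La, and 8.021 and 9.580 FPKM in SePC-La, so that the groups did not overlap. Both SePC-La samples were below both PC-La samples for 6 of the 10 listed genes and for 39.5% of all genes tested. Both PC-La samples were above both Laser samples for 2 of the 10 and for 20.4% of all genes, so nothing is read from this.

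Irf1, an interferon-induced transcription factor that acts on the promoter of Ciita, was at 31.83 and 26.51 FPKM in Laser, 40.87 and 50.28 FPKM in PC-La, and 42.40 and 41.18 FPKM in SePC-La. For Irf1 the SePC-La samples lay above both Laser samples and within the range of the PC-La samples, which none of the class II genes did. Its log2 difference was 0.62 (SE 0.15) for PC-La against Laser and 0.51 (SE 0.15) for SePC-La against Laser, and it was not called. Ifng, which encodes interferon-γ, was between 0.737 and 0.973 FPKM in the 6 samples and below the filter.

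The class I pathway, which presents peptides made inside the cell to CD8+ T cells, gave a different picture. All 9 listed genes were tested. Their log2 differences were positive for PC-La against Laser (0.42 to 1.23, median 0.55) and for SePC-La against Laser (0.29 to 0.79, median 0.51), and spread around 0 for SePC-La against PC-La (median -0.07). With limma, 9, 6 and 0 of them had an unadjusted p under 0.05 in these 3 comparisons, beside 627, 1318 and 2637 of all 10853 genes. Both PC-La samples were above both Laser samples for 9 of them, beside 20.4% of all genes. Both SePC-La samples were above both Laser samples for 7, beside 15.0%. Psmb8, a subunit of the immunoproteasome, was the 1 gene called, at 1.23 (SE 0.37, limma adjusted p = 0.753) for PC-La against Laser, beside 0.866% of all genes. It was not called without Laser replicate 2, at 0.88, or without PC-La replicate 2, at 1.15. Nlrc5, the class I counterpart of Ciita, was at 11.72 and 9.540 FPKM in Laser, 15.06 and 17.84 FPKM in PC-La, and 16.05 and 10.83 FPKM in SePC-La. Its log2 difference was 0.59 (SE 0.21) for PC-La against Laser and -0.29 (SE 0.21) for SePC-La against PC-La, where Ciita was at 1.56 and -1.40. The difference between the class I and class II genes was not tested, since both lists were chosen with earlier results of these samples known.

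**Figure D4:**
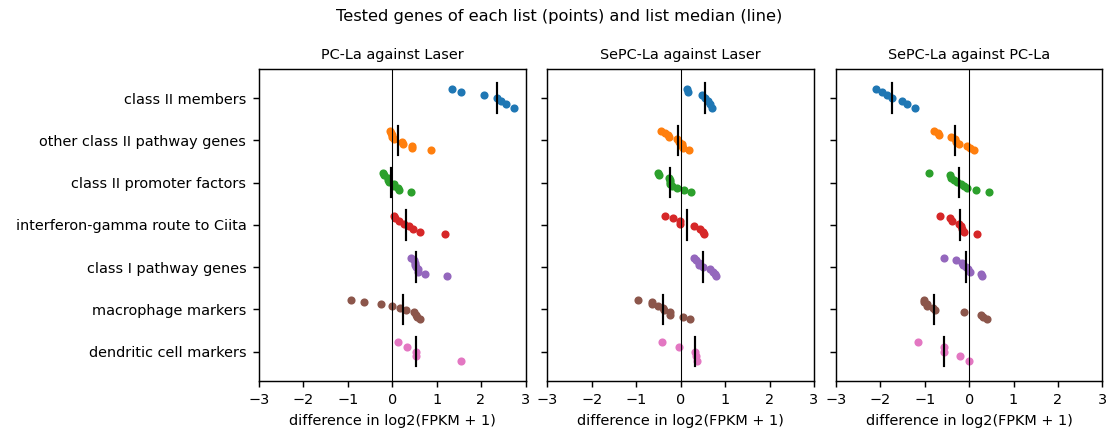
Difference in log2(FPKM + 1) of each tested gene (points) and the list median (line) for 7 gene lists in the 3 comparisons. The class II members lie at a median of 2.35, 0.54 and -1.73, and the class I genes at 0.55, 0.51 and -0.07.

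The costimulators that accompany class II at the surface were tested for 3 of 3 genes and none was called. Cd40, which receives help from CD4+ T cells, was at 1.494 and 1.164 FPKM in Laser, 2.499 and 3.139 FPKM in PC-La, and 1.463 and 1.312 FPKM in SePC-La. Its log2 difference was 0.71 (SE 0.18) for PC-La against Laser and -0.67 (SE 0.18) for SePC-La against PC-La. Cd80 ran the other way, at -0.04 (SE 0.27) for PC-La against Laser and 0.82 (SE 0.27) for SePC-La against PC-La. Of 6 genes of CD4+ T cells and class II receptors, 3 passed the filter and none was called.

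Markers of the cells that carry class II were measured in the same samples. The 10 macrophage markers summed to 678 and 726 FPKM in Laser, 916 and 976 FPKM in PC-La, and 401 and 748 FPKM in SePC-La. The complement genes C1qa, C1qb and C1qc made up most of these sums. Of the 10 log2 differences for PC-La against Laser, 6 were positive, and Mrc1 (-0.92), Itgam (-0.64) and Cd68 (-0.24) were the lowest. None was called against Laser, and C1qa and C1qc were called lower in SePC-La than in PC-La, each at -1.01, although not with median-ratio scaling or without SePC-La replicate 1, where they were at -0.49 and -0.52, and not without either PC-La sample. Of 9 dendritic cell markers, 5 passed the filter, with sums over all 9 of 27.0 and 19.1 FPKM in Laser, 34.2 and 43.9 FPKM in PC-La, and 22.8 and 25.0 FPKM in SePC-La. Itgax, the integrin CD11c of dendritic cells and some macrophages, was higher in PC-La than in Laser by a called difference of 1.54 (SE 0.42), and lower in SePC-La than in PC-La, at -1.16 (SE 0.42). The first call was lost without Laser replicate 2, at 0.92, or PC-La replicate 2, at 1.31, and the second without any 1 of the SePC-La or PC-La samples, at -1.39 to -0.93. The 5 B cell markers summed to between 0.364 and 1.46 FPKM and none passed the filter. Neutrophil markers, by contrast, were highest in SePC-La, where 5 of them summed to 330 and 434 FPKM, against 148 and 31.9 FPKM in Laser and 144 and 76.8 FPKM in PC-La. S100a8, S100a9 and Retnlg were called higher in SePC-La than in Laser, and S100a8 and Retnlg higher than in PC-La, beside 1.18% of all genes. The calls of S100a8 held under all 15 alternatives. That of S100a9 held under 8 of 15, with a log2 difference of 2.71 that fell to 1.31 when Laser replicate 2 was left out and grew to 4.11 when Laser replicate 1 was. Those of Retnlg held under 12 of 15 against Laser and 9 of 15 against PC-La, where 2.02 became 0.97 without PC-La replicate 2. The part of these cells in the class II values was not tested.

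The mean log2 level of the 6 class II genes other than Ciita was also set against the macrophage markers of the same sample. It stood 0.253 and -1.453 from the mean of the 10 macrophage markers for Laser, 1.474 and 1.657 for PC-La, and 0.736 and -0.135 for SePC-La. On this scale the PC-La samples were still above all others, by 2.17 from the Laser mean (1.31 without Laser replicate 2) and by 1.27 from the SePC-La mean (0.83 without SePC-La replicate 2 and 1.70 without SePC-La replicate 1). Relative to Ptprc the distance was 1.53 from Laser (1.12 without Laser replicate 2) and 1.16 from SePC-La. These are differences of log2 levels within a sample and do not separate cell number from RNA per cell. Of 7 epithelial and lung markers, only the keratins Krt8 and Krt18 passed the filter, at 78.09 to 165.9 FPKM. The keratin Krt19 and the cadherin Cdh1 reached at most 0.931 and 1.17 FPKM, and the adhesion molecule Epcam 0.129 FPKM. The surfactant gene Sftpc reached 0.369 FPKM, and the lung factor Nkx2-1 was listed at 0 in all 6 samples. Sftpc and Nkx2-1 were thus at or near 0 in these tumors grown from a Lewis lung carcinoma line, while Krt8 and Krt18 were not.

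The 10 genes whose profile was nearest to that of the 7 were taken from 7484 candidates with a mean of at least 5 FPKM, by the root mean square distance of their centred log2 levels over the 6 samples from the mean profile of the 7. The median distance of a candidate was 1.04, and the 7 genes themselves lay at 0.13 (H2-DMb1) to 0.427 (H2-DMa). The nearest was Mmp10, the matrix metalloproteinase stromelysin-2, at a distance of 0.123. It was at 3.47 and 0.526 FPKM in Laser, 10.1 and 12.8 FPKM in PC-La, and 2.13 and 2.20 FPKM in SePC-La. Mmp10 thus reached the minimum mean of 5 FPKM through the PC-La samples alone, as did some others of the 10. That minimum favoured genes that are high in a group. Next came Cd72 (0.259), a lectin-like receptor of B cells and macrophages, and Itgax (0.304). Ifi44 (0.334), an interferon-induced gene, Pthlh (0.374), which encodes the parathyroid hormone-related protein, and Trp53i11 (0.397) followed. The last 4 were Scimp (0.403), a membrane adaptor of antigen-presenting cells known to associate with class II, Cd83 (0.419), a marker of mature dendritic cells, the matrix gene Tnc (0.421) and Ass1 (0.445), an enzyme of arginine synthesis. All 10 had Laser replicate 2 as their lowest sample and a PC-La sample as their highest, as the 7 genes had. The search was for that profile, so this likeness was built in and nothing is read from it.

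**Figure D5:**
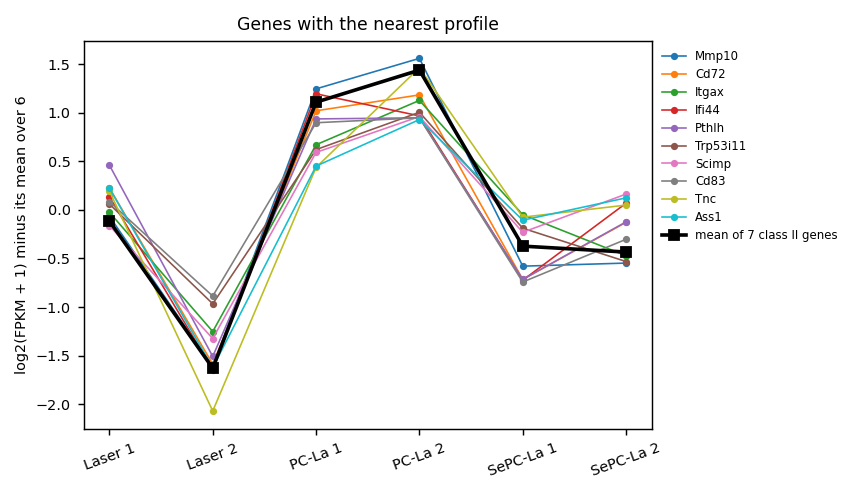
Centred log2(FPKM + 1) of the 10 nearest genes (coloured lines) and of the mean of the 7 class II genes (black) in each sample; the lines join samples for reading only. The black line stands at -0.114 and -1.63 for Laser, 1.11 and 1.44 for PC-La, and -0.373 and -0.434 for SePC-La.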

How the data were processed

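RNA from 6 samples of mouse tumor tissue, 2 in each of 3 groups, was sequenced. The deposited table holds FPKM values, made by the authors. The submitters' notes name HISAT2 2.0.5, HTSeq 0.9.1, DESeq 1.30.0 and build mm9, without roles. The unit was read from the values: multiplied by merged exon lengths of GENCODE M21 (GRCm38), 97.8% of the expressed genes with a length gave whole reads in all 6 samples (tolerance 0.02). Recovered totals were 14447792 to 17649489 reads per sample. The mm9 note and the fit of these lengths were not reconciled, and gene coordinates are those of GENCODE M21.

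Values were used as deposited. The limma package (3.58.1, under R 4.3.3) was fitted to log2(FPKM + 1) of the genes averaging 1 FPKM or more, with all samples in one fit, a trend and robust estimation; p-values are two-sided. Replicates of a group differed beyond sampling noise (mean chi-square per gene 9.32 to 77.9). The script was tested on simulated data.

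The 7 genes and all lists were chosen with earlier results of these data known. Named were the 7 genes, list genes called in a comparison and the 10 nearest profiles. Further genes of the pathway were fixed by name (Ifng, Irf1, Ctss, H2-Ea, H2-DMb2, H2-Oa, H2-Ob and Nlrc5). Ctsb, Ctsd, Lgmn, H2-Eb2, March1, Rfx5, Kat2b, Cd40, Cd80, Ptprc, C1qb, Mrc1, Itgam and Cd68 were named after their values were seen. So were Clec9a, Ccr7, Irf8, Batf3 and the epithelial and lung markers. The result of a single gene is not reported here. Alternatives were a pseudocount of 0.1, no filter, quantile normalization, median-ratio scaling, a minimum mean of 5 FPKM, a replicate block, only the samples compared, no trend and no robust estimation, each sample left out, and limma voom on recovered reads, added after seeing the data. Promoters are RefSeq windows of GRCm38.p6, matched by symbol. Python 3.11.15 was used with pandas 2.3.3, NumPy 2.4.6 and matplotlib 3.10.9 for the figures.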

Additional observations from a re-analysis of the deposited data

How the results depend on the processing

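The log2 difference was positive for PC-La against Laser and negative for SePC-La against PC-La for each of the 7 genes under every alternative in which the gene was fitted. For SePC-La against Laser the direction turned for all 7 without Laser replicate 2, and for H2-DMa also without SePC-La replicate 2 (-0.067). The number of all genes called in PC-La against Laser was 140 and became 221 with limma voom, 68 at a minimum of 5 FPKM and 71 to 664 with a sample left out. In SePC-La against Laser 74 became 133 with voom, 46 at 5 FPKM, 129 with a pseudocount of 0.1 and 60 to 253 with a sample left out. In SePC-La against PC-La 323 became 186 at 5 FPKM, 488 with the pseudocount and 169 to 584 with a sample left out. Of the 7 class II genes, 4 to 7, 0 to 5 and 2 to 7 were called with a sample left out. At 5 FPKM, where Ciita fails the filter, H2-Ab1 was not called in SePC-La against PC-La (-1.85), and with voom likewise (-1.87). Of the other pathway genes 1 was called with voom in PC-La against Laser (H2-DMb2), 1 with voom and 1 with the pseudocount in SePC-La against PC-La (March1), and 0 to 1 in both with a sample left out. The median log2 difference of the 7 with a sample left out was 1.46 to 3.25 for PC-La against Laser and -0.27 to 1.32 for SePC-La against Laser. Relative to the macrophage markers these ranges were 1.31 to 3.02 and 0.048 to 1.75, and relative to Ptprc 1.12 to 1.94 and -0.04 to 0.78, while for SePC-La against PC-La they were -1.70 to -0.83 and -1.30 to -1.02. The causes were not tested.

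The labels do not say whether samples with the same replicate number belong together. Across genes, the correlation of deviations of same-numbered samples was 0.0862 between Laser and PC-La, -0.428 between Laser and SePC-La and -0.177 between PC-La and SePC-La. With 2 samples per group these values cannot decide whether the numbers mark a pairing. With the replicate block, 133, 81 and 285 genes were called in the 3 comparisons in the order above, and 7, 0 and 7 of the class II genes. With 2 samples per group the spread, and not read depth, limits the comparisons of the 7 class II genes, which had at least 70 reads in each sample. H2-DMb2, with 7 reads in Laser replicate 2, is limited by depth as well.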
